A study of Mus musculus with 6 samples.

Results

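Transcripts of 9 membrane-anchored serine proteases were followed in organoids of mouse esophageal epithelium. The genes were Tmprss11a, Tmprss11d, Tmprss11e, Tmprss11f, Tmprss11g, Tmprss2, Tmprss4, Tmprss13 and St14. They were chosen by name, with earlier results of these data known. They are 9 of the 52636 genes in the deposited table. All 9 were among the 18241 genes that passed the filter on low values. RNA from whole organoids was sequenced in 6 libraries, 2 for each of 3 treatments. The TGFb1+BMP4+ibuprofen organoids received TGFb1 at 1 ng/ml, BMP4 at 20 ng/ml and ibuprofen at 500 µM. The TGFb1+BMP4 organoids received the same ligands without ibuprofen, and the TGFb inhibitor organoids received A8301, a blocker of TGFb type I receptors, at 500 nM. Treatment lasted 72 hours with renewal every 24 hours, in organoids kept for 13 days in Matrigel. All 6 libraries came from Krt5CreER:RosaSmoM2 mice (K5:Smo), whose esophagi were taken 5 days after tamoxifen. In these mice tamoxifen switches on SmoM2, an active form of the Hedgehog transducer Smoothened, in cells that use the Krt5 promoter, so the controls carried it too. Every group received either the inhibitor or the ligands, and the labels leave unsaid if the inhibitor was left out when ligands were given. The libraries held 6413873 to 7730582 reads in genes. Separate animals or cultures are not stated for the 2 libraries of a group, so p-values measure only the spread between these libraries.

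Type II transmembrane serine proteases sit in the plasma membrane by a single pass near their amino end and hold a trypsin-like protease domain outside the cell. They are made as inactive zymogens and become active on cleavage. Their catalysis depends on a histidine, an aspartate and a serine. The Tmprss11 genes form the HAT/DESC subfamily, which is expressed mainly in squamous and airway epithelia and lies as a gene cluster. Matriptase, encoded by St14, acts with the anchored protease prostasin (Prss8) in epithelial barriers and is held in check by the Kunitz-type inhibitors HAI-1 (Spint1) and HAI-2 (Spint2).

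The coding stretch around the catalytic serine is shown because it is the shared active-site feature of the family and lets the 9 members be compared directly. Each line gives 30 coding bases read from the GENCODE vM21 transcript of that gene, 5′ to 3′, with the serine codon in capitals.
Tmprss11a: tgcaggggtgatTCTgggggaccattggtt
Tmprss11d: tgccagggtgatTCAggtggcccgctagta
Tmprss11e: tgccagggtgacTCGggaggtccacttgtt
Tmprss11f: tgtaagggtgatTCTggtggacctttggtt
Tmprss11g: tgtgaaggtgatTCTggagggcctctggtt
Tmprss2: tgccagggagacAGTggagggccgctggtt
Tmprss4: tgccagggtgacAGTggtgggcctttgatg
Tmprss13: tgccagggagacAGTggaggacctctcgtc
St14: tgccagggtgacTCTggtggccccttgtca
The 9 stretches encode a serine preceded by aspartate and glycine codons. In Tmprss2, Tmprss4 and Tmprss13 the serine codon is AGT, while in St14 and the 5 Tmprss11 genes it belongs to the other serine codon family. The serine lies at codon 339 in Tmprss11a and at codon 805 in St14, the longest of the 9 coding sequences. No stretch of 50 bases was shared between the transcripts of any pair of members. Stretches of that length shared with genes outside the family numbered 14 in Tmprss11d, 6 in Tmprss13, 27 in St14 and 0 in the other 6 members.

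The 5 Tmprss11 members lie on chromosome 5 (GRCm38) between positions 86302217 and 86745815, all on the minus strand. In ascending position the order is Tmprss11d, Tmprss11a, Tmprss11g, Tmprss11f, Tmprss11b and Tmprss11e, of which Tmprss11b is not among the 9. Tmprss4 (chr9:45172726-45204092), Tmprss13 (chr9:45319100-45347581) and St14 (chr9:31089402-31131853) lie on chromosome 9, and Tmprss2 (chr16:97564682-97611195) on chromosome 16. The promoters are printed for the 4 members of the cluster that had a RefSeq entry, which Tmprss11e lacked. They are the 250 bases before the annotated start from RefSeq (GRCm38.p6), 5′ to 3′ along the gene. Capitals mark matches on either strand to the Grainyhead-like motif AACNNGTT in Tmprss11a and Tmprss11g, and to the AP-1 motif TGACTCA in Tmprss11f.
Tmprss11d, chr5:86373388-86373637, minus strand: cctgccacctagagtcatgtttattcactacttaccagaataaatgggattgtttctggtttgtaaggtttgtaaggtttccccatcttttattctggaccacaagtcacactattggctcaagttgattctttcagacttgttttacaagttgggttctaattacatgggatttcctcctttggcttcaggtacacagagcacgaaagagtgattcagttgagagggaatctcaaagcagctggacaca
Tmprss11a, chr5:86468991-86469240, minus strand: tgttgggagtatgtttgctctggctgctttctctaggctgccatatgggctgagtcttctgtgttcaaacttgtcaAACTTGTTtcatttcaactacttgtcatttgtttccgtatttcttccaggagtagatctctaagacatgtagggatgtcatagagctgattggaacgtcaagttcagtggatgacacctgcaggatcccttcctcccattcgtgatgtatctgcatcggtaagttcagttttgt
Tmprss11g, chr5:86518601-86518850, minus strand: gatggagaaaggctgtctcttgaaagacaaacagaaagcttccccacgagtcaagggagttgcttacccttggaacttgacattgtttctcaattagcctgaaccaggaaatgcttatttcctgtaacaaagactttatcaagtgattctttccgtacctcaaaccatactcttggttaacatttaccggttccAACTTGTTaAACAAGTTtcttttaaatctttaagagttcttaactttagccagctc
Tmprss11f, chr5:86632425-86632674, minus strand: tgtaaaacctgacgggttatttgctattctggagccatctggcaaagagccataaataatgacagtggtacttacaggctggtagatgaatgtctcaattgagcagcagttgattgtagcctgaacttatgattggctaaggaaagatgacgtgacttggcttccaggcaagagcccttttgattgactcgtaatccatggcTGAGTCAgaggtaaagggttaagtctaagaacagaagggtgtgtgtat
The RefSeq table held 5 of the 9 members, these 4 and Tmprss2. AACNNGTT occurred 174 bases before the Tmprss11a start, and 56 and 47 bases before the Tmprss11g start. It occurred in 3.64% of all 32851 promoter windows of the same length. TGACTCA occurred 48 bases before the Tmprss11f start and in 4.46% of all windows. Another 4 sets of letters were searched on both strands and were in none of the 5 windows. These were GTCTAGAC (a SMAD motif, 0.167% of all windows), GGCGCC (a BMP SMAD motif, 9.59%), GACCACCCA (a GLI motif, 0.225%) and the PPAR direct-repeat motif (0.0335%). The windows are short, and a match of letters is a description and not a binding site.

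The 9 proteases did not move as a block. Changes were tested with limma on log2(CPM + 1) after TMM scaling, over 18241 genes, with Benjamini-Hochberg adjustment and a threshold of 0.05. In TGFb1+BMP4 organoids against TGFb inhibitor organoids, 3 members rose (Tmprss11d, Tmprss11f and Tmprss11g), 3 fell (Tmprss11a, Tmprss4 and Tmprss13) and 3 did not pass. That is 6 of 9, where 40.3% of all tested genes were called, 20.4% higher and 19.9% lower. In TGFb1+BMP4+ibuprofen organoids against TGFb1+BMP4 organoids, 3 rose (Tmprss11e, Tmprss13 and St14), 4 fell (Tmprss11a, Tmprss11d, Tmprss11f and Tmprss11g) and 2 did not pass, where 19.7% of all tested genes were called, 10.7% higher and 9.01% lower. Of the genes called there 54.3% were higher, and 43.2% with the deposited CPM left unscaled. In TGFb1+BMP4+ibuprofen organoids against TGFb inhibitor organoids, 3 rose (Tmprss11e, Tmprss11g and St14), 5 fell (Tmprss11a, Tmprss11d, Tmprss11f, Tmprss4 and Tmprss13) and Tmprss2 did not pass, where 40.7% of all genes were called, 20.8% higher and 19.9% lower. The median log2 change of the 9 was 0.10, 0.33 and -0.98 in these 3 comparisons, and that of all tested genes 0, -0.01 and -0.02. The comparisons share libraries, so they are not independent of each other.

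**Figure D1:**
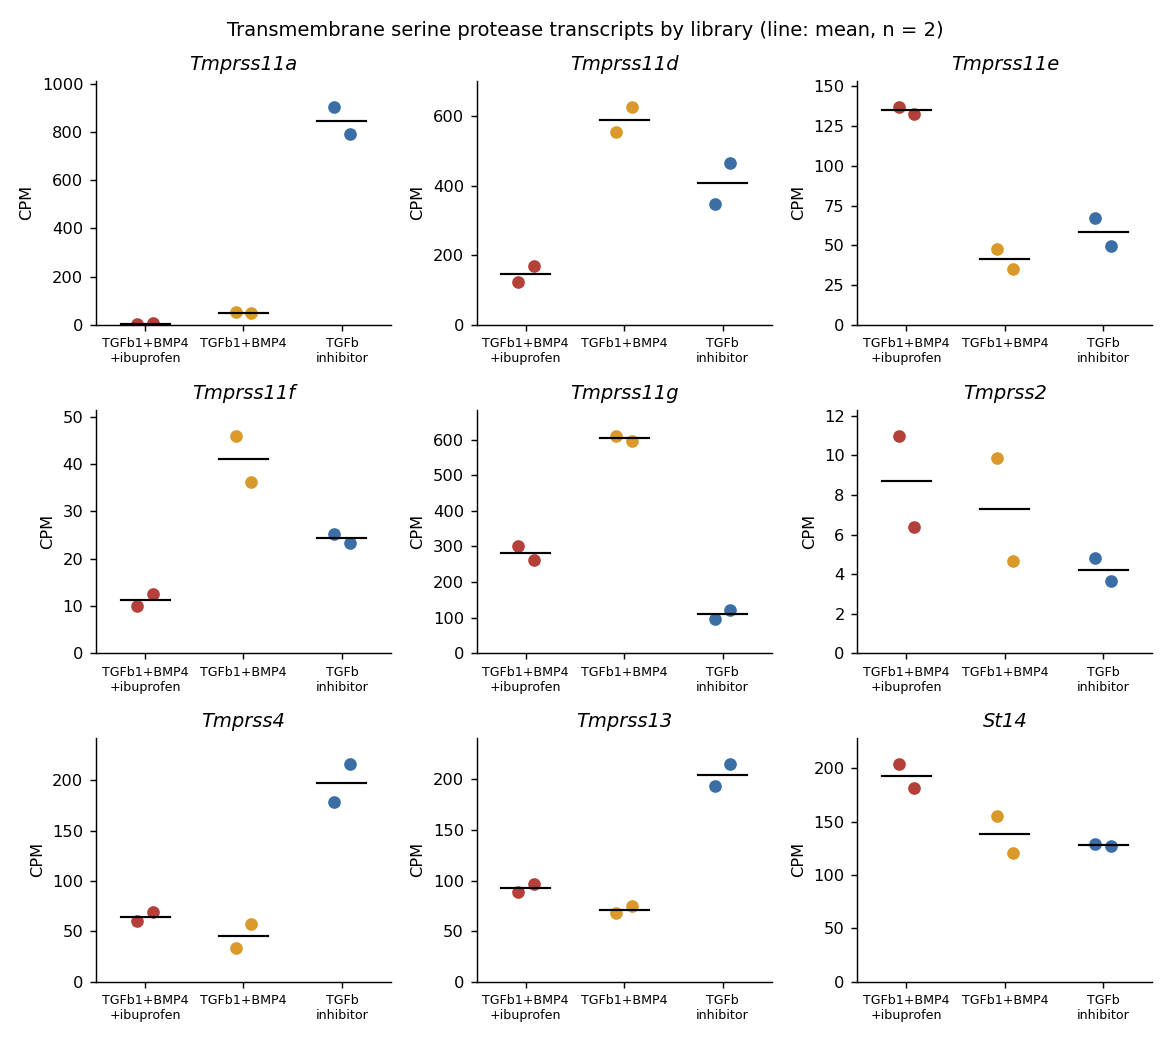
Each panel plots the transcript level of a protease in CPM (linear axis from 0) for the 3 treatments, with a point per library and a line at the mean of 2 libraries. Tmprss11a is highest with the TGFb inhibitor (903 and 790 CPM), Tmprss11g with TGFb1+BMP4 (611 and 595 CPM) and Tmprss11e with TGFb1+BMP4+ibuprofen (137 and 133 CPM).

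The CPM ranges of the groups did not overlap for 7 of 9 members between TGFb1+BMP4 and TGFb inhibitor organoids, against 72.2% of all tested genes. They did not overlap for 8 of 9 between TGFb1+BMP4+ibuprofen and TGFb1+BMP4 organoids, against 58.8% of all genes, and for 9 of 9 between TGFb1+BMP4+ibuprofen and TGFb inhibitor organoids, against 72.4%. With 2 libraries a group, separation of this kind was common among all genes.

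Tmprss11a, a HAT/DESC protease whose human counterpart was described as an esophageal cancer related gene, showed the widest range of the 9. It had 3.2 and 6.54 CPM in TGFb1+BMP4+ibuprofen organoids, 51.6 and 47.9 CPM in TGFb1+BMP4 organoids and 903 and 790 CPM in TGFb inhibitor organoids. The 3 groups did not overlap, with TGFb inhibitor organoids highest and TGFb1+BMP4+ibuprofen organoids near the bottom. The lowest values stood for 22 and 42 reads, above the 3 reads used as a floor. Tmprss11a fell by 4.05 on the log2 scale in TGFb1+BMP4 organoids against TGFb inhibitor organoids (SE 0.24, limma adjusted p = 7.77e-06). It fell by 3.11 more in TGFb1+BMP4+ibuprofen organoids against TGFb1+BMP4 organoids (SE 0.24, limma adjusted p = 0.000124). Between TGFb1+BMP4+ibuprofen and TGFb inhibitor organoids the ratio of mean CPM was 174-fold lower in the ligand and ibuprofen group, and the log2 change was -7.16 (SE 0.24, limma adjusted p = 4.88e-07). The pseudocount of 1 understates the change of a gene this low.

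Tmprss11g, another HAT/DESC protease and the next expressed gene of the cluster after Tmprss11a, showed a different order. Its values were 300 and 263 CPM in TGFb1+BMP4+ibuprofen organoids, 611 and 595 CPM in TGFb1+BMP4 organoids and 96.8 and 121 CPM in TGFb inhibitor organoids. The groups did not overlap, and both groups with ligands were above the TGFb inhibitor group. Tmprss11g rose by 2.47 (log2, SE 0.12, limma adjusted p = 3.9e-06) in TGFb1+BMP4 organoids against TGFb inhibitor organoids. With ibuprofen it fell by 1.03 (SE 0.12, limma adjusted p = 0.000934) relative to the ligands alone, and was still 1.45 higher (SE 0.12, limma adjusted p = 5.14e-05) than with the TGFb inhibitor. Tmprss11a and Tmprss11g moved in opposite directions with the ligands, and both fell when ibuprofen was added, as did Tmprss11d and Tmprss11f.

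Tmprss11d, the mouse counterpart of human airway trypsin-like protease, and Tmprss11f, a further HAT-like protease, shared the order of their groups. Tmprss11d had 124 and 168 CPM in TGFb1+BMP4+ibuprofen organoids, 554 and 626 CPM in TGFb1+BMP4 organoids and 348 and 466 CPM in TGFb inhibitor organoids. Tmprss11f had 9.99 and 12.6 CPM in TGFb1+BMP4+ibuprofen organoids, 46 and 36.2 CPM in TGFb1+BMP4 organoids and 25.3 and 23.4 CPM in TGFb inhibitor organoids. For both genes the 3 groups were separate, highest with the ligands and lowest with the ligands and ibuprofen. With ibuprofen added to the ligands, Tmprss11d fell by 1.95 (log2, SE 0.17, limma adjusted p = 0.000251) and Tmprss11f by 1.70 (SE 0.17, limma adjusted p = 0.000462). Against TGFb inhibitor organoids, the log2 change in TGFb1+BMP4+ibuprofen organoids was -1.39 for Tmprss11d (SE 0.17, limma adjusted p = 0.000381) and -0.98 for Tmprss11f (SE 0.17, limma adjusted p = 0.0025). The rises in TGFb1+BMP4 organoids against TGFb inhibitor organoids were smaller, 0.56 for Tmprss11d (SE 0.17, limma adjusted p = 0.0318) and 0.73 for Tmprss11f (SE 0.17, limma adjusted p = 0.0105). The rise of Tmprss11d was 0.34 (limma adjusted p = 0.213) without TGFb inhibitor replicate 1, and its call was also lost without TGFb1+BMP4 replicate 1 (0.0557) or 2 (0.105) and with no filter on low values (0.0955). The call of Tmprss11f was lost without TGFb1+BMP4 replicate 1 (limma adjusted p = 0.0724) or TGFb inhibitor replicate 2 (0.0616).

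Tmprss11e, first described as DESC1, a transcript of squamous epithelium, was the only one of the 5 Tmprss11 members that rose when ibuprofen was added to the ligands. It had 137 and 133 CPM in TGFb1+BMP4+ibuprofen organoids, 47.4 and 35.3 CPM in TGFb1+BMP4 organoids and 67.5 and 49.8 CPM in TGFb inhibitor organoids. Both ibuprofen libraries were above all others. The log2 change was 1.77 (SE 0.18, limma adjusted p = 0.000405) against TGFb1+BMP4 organoids and 1.28 (SE 0.18, limma adjusted p = 0.000654) against TGFb inhibitor organoids. Between TGFb1+BMP4 and TGFb inhibitor organoids it was -0.48 (SE 0.18, limma adjusted p = 0.0568), which did not pass, although the libraries did not overlap. It was -0.68 (limma adjusted p = 0.034) without TGFb inhibitor replicate 2 and -0.72 (0.0126) without TGFb1+BMP4 replicate 1, but -0.28 (0.331) without TGFb inhibitor replicate 1 and -0.25 (0.293) without TGFb1+BMP4 replicate 2. With the deposited CPM left unscaled it passed (limma adjusted p = 0.0474).

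**Figure D2:**
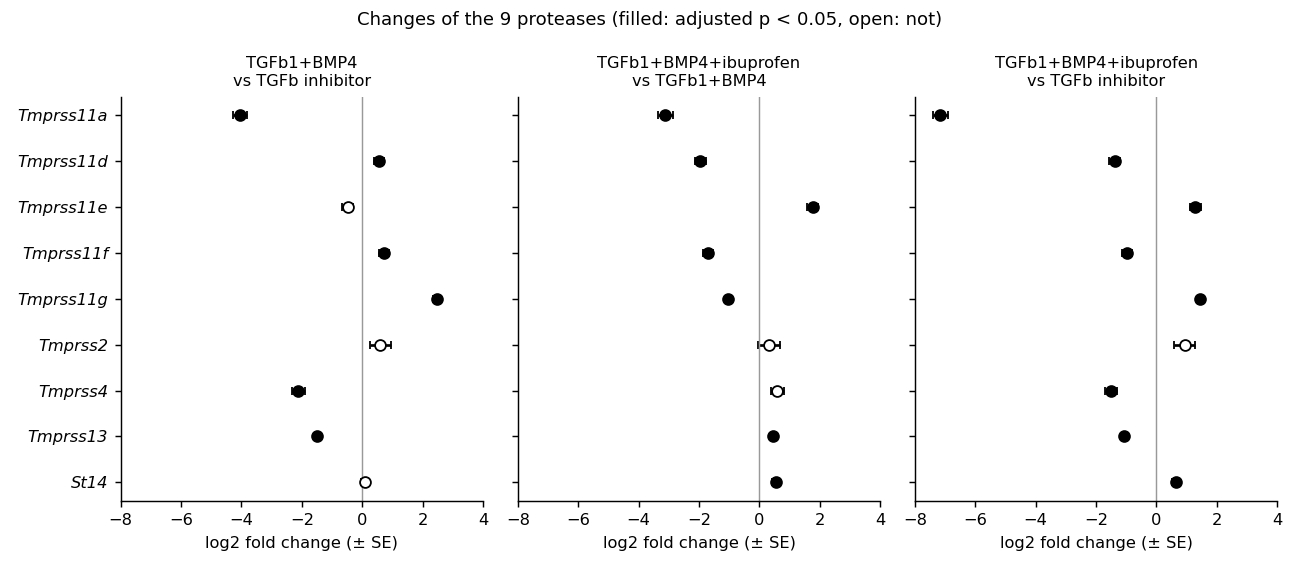
Log2 fold changes with their standard errors for the 9 proteases, a panel per comparison, drawn filled where the limma adjusted p is below 0.05 and open where it is not. Tmprss11a lies far left in all 3 panels, while Tmprss11e and Tmprss11g stand right of 0 in the panel of TGFb1+BMP4+ibuprofen against TGFb inhibitor.

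Tmprss4 and Tmprss13, both on chromosome 9, had their highest levels with the TGFb inhibitor. Tmprss4, known from human pancreatic cancer, had 60.1 and 69.1 CPM in TGFb1+BMP4+ibuprofen organoids, 33.8 and 57.6 CPM in TGFb1+BMP4 organoids and 178 and 216 CPM in TGFb inhibitor organoids. Tmprss13, which is needed for a normal epidermal barrier in mice, had 88.4 and 96.1 CPM in TGFb1+BMP4+ibuprofen organoids, 67.5 and 74.4 CPM in TGFb1+BMP4 organoids and 193 and 215 CPM in TGFb inhibitor organoids. Both groups with ligands were below both TGFb inhibitor libraries for each gene. In TGFb1+BMP4 organoids against TGFb inhibitor organoids Tmprss4 fell by 2.12 (log2, SE 0.21, limma adjusted p = 0.000113) and Tmprss13 by 1.5 (SE 0.10, limma adjusted p = 1.47e-05). In TGFb1+BMP4+ibuprofen organoids against TGFb inhibitor organoids Tmprss4 fell by 1.51 (SE 0.21, limma adjusted p = 0.000693) and Tmprss13 by 1.06 (SE 0.10, limma adjusted p = 8.58e-05). With ibuprofen added to the ligands Tmprss13 rose by 0.45 (SE 0.10, limma adjusted p = 0.0156), while Tmprss4 differed by 0.60 (SE 0.21, limma adjusted p = 0.0786), which did not pass. That rise of Tmprss13 was lost without TGFb1+BMP4 replicate 1 (limma adjusted p = 0.0626) or TGFb1+BMP4+ibuprofen replicate 2 (0.0779), and the change of Tmprss4 was 0.26 (limma adjusted p = 0.309) without TGFb1+BMP4 replicate 1 and 0.94 (0.00619) without TGFb1+BMP4 replicate 2.

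Exons of Tmprss4 overlap the antisense gene Gm17099 over 412 bases, and those of Tmprss13 overlap the antisense gene 1700003G13Rik over 56 bases. The strand setting of the counting is not given in the sources used here, so reads of a gene and its antisense partner cannot be told apart in those bases. Gm17099 had 21.2 and 22.5 CPM in TGFb1+BMP4+ibuprofen organoids, 10.5 and 18.1 CPM in TGFb1+BMP4 organoids and 54.1 and 70.5 CPM in TGFb inhibitor organoids. It was highest in the same group as Tmprss4.

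St14, which encodes matriptase, was higher with ibuprofen than in either of the other groups. It had 204 and 182 CPM in TGFb1+BMP4+ibuprofen organoids, 155 and 121 CPM in TGFb1+BMP4 organoids and 129 and 127 CPM in TGFb inhibitor organoids. Both ibuprofen libraries were above the other 4, and the TGFb1+BMP4 libraries lay on either side of the TGFb inhibitor libraries. St14 rose by 0.66 (log2, SE 0.13, limma adjusted p = 0.00457) in TGFb1+BMP4+ibuprofen organoids against TGFb inhibitor organoids. Against TGFb1+BMP4 organoids it rose by 0.56 (SE 0.13, limma adjusted p = 0.0202). Without TGFb1+BMP4 replicate 2 this was 0.34 (limma adjusted p = 0.0892), and the call was also lost without TGFb1+BMP4+ibuprofen replicate 1 (0.12) and with no filter on low values (0.0685). Between TGFb1+BMP4 and TGFb inhibitor organoids the change was 0.10 (SE 0.13, limma adjusted p = 0.594), and -0.11 without TGFb1+BMP4 replicate 1.

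Tmprss2, known for cleaving the surface proteins of respiratory viruses, was the least abundant member per length in TGFb1+BMP4 and TGFb inhibitor organoids and passed the test in none of the 3 comparisons. It had 11 and 6.4 CPM in TGFb1+BMP4+ibuprofen organoids, 9.89 and 4.65 CPM in TGFb1+BMP4 organoids and 4.8 and 3.65 CPM in TGFb inhibitor organoids. The libraries of each group with ligands were far apart. Its log2 change was 0.93 (SE 0.36, limma adjusted p = 0.0681) in TGFb1+BMP4+ibuprofen organoids against TGFb inhibitor organoids and 0.60 (SE 0.36, limma adjusted p = 0.215) in TGFb1+BMP4 organoids against TGFb inhibitor organoids. With ibuprofen against the ligands alone it was 0.33 (SE 0.36, limma adjusted p = 0.58), which turned to -0.18 without TGFb1+BMP4 replicate 2 and to -0.02 without TGFb1+BMP4+ibuprofen replicate 1. Without TGFb1+BMP4 replicate 2, Tmprss2 passed in TGFb1+BMP4 organoids against TGFb inhibitor organoids, at 1.10 (limma adjusted p = 0.0345), and without TGFb1+BMP4 replicate 1 that change was 0.11 (0.846). Without TGFb1+BMP4 replicate 1 or 2 it also passed in TGFb1+BMP4+ibuprofen organoids against TGFb inhibitor organoids (0.0267 and 0.0259).

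Added up, the 9 proteases had 938 ± 0.707 CPM in TGFb1+BMP4+ibuprofen organoids, 1588 ± 14.8 CPM in TGFb1+BMP4 organoids and 1979 ± 46.7 CPM in TGFb inhibitor organoids (SD, n = 2 each). The groups did not overlap. The sum of the 5 Tmprss11 genes was 579 ± 5.66 CPM in TGFb1+BMP4+ibuprofen organoids, 1326 ± 21.2 CPM in TGFb1+BMP4 organoids and 1446 ± 6.36 CPM in TGFb inhibitor organoids. Tmprss11a alone had a mean of 847 CPM in TGFb inhibitor and 49.7 CPM in TGFb1+BMP4 organoids. That fall was larger than the fall of either sum between these 2 groups. The shares below depend on each other, and a fall of Tmprss11a raises those of the other members. Tmprss11a made up 0.52% ± 0.253 of the summed CPM of the 9 in TGFb1+BMP4+ibuprofen organoids, 3.13% ± 0.191 in TGFb1+BMP4 organoids and 42.8% ± 5.02 in TGFb inhibitor organoids. Tmprss11g made up 30.1% ± 2.76 in TGFb1+BMP4+ibuprofen organoids, 38% ± 1.13 in TGFb1+BMP4 organoids and 5.5% ± 0.735 in TGFb inhibitor organoids. Tmprss11e made up 14.4% ± 0.283 with ibuprofen, 2.61% ± 0.566 in TGFb1+BMP4 organoids and 2.98% ± 0.7 in TGFb inhibitor organoids. The share of St14 was likewise highest with ibuprofen, at 20.5% ± 1.63, against 8.69% ± 1.62 in TGFb1+BMP4 organoids and 6.49% ± 0.233 in TGFb inhibitor organoids.

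**Figure D3:**
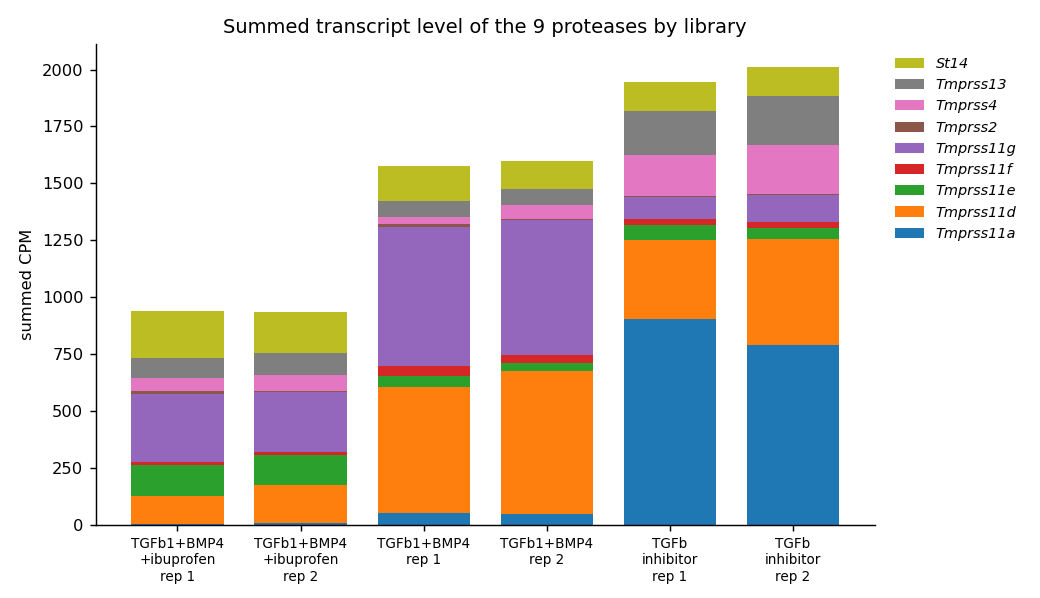
Stacked bars give the summed CPM of the 9 proteases in each of the 6 libraries, coloured by gene, on an axis from 0. The sums are 937 to 938 CPM with TGFb1+BMP4+ibuprofen, 1577 to 1598 CPM with TGFb1+BMP4 and 1946 to 2012 CPM with the TGFb inhibitor, where Tmprss11a fills the largest part of the bar.

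Levels were set against each other per kilobase of the longest protein-coding transcript. With TGFb1+BMP4+ibuprofen the order began with Tmprss11g at 98.1 ± 9.2 CPM per kb, followed by St14 at 59.2 ± 4.64 and Tmprss11d at 53.8 ± 11.3, the last 2 overlapping. Tmprss11e followed at 39.5 ± 0.729 CPM per kb, then Tmprss13 and Tmprss4, which overlapped at 28.4 ± 1.7 and 28.3 ± 2.78. Tmprss11f, Tmprss2 and Tmprss11a closed it at 3.14 ± 0.519, 2.75 ± 1.03 and 1.83 ± 0.891 CPM per kb, each overlapping its neighbour. With TGFb1+BMP4, Tmprss11d (217 ± 18.7 CPM per kb) and Tmprss11g (210 ± 3.86) overlapped at the top, far above St14 (42.3 ± 7.47). Tmprss13, Tmprss4 and Tmprss11a followed at 21.9 ± 1.5, 20 ± 7.36 and 18.7 ± 0.971, each overlapping the next. Tmprss11e (12.1 ± 2.5) and Tmprss11f (11.4 ± 1.92) overlapped, and Tmprss2 was last at 2.3 ± 1.17 CPM per kb. With the TGFb inhibitor, Tmprss11a led at 319 ± 30.2 CPM per kb, followed by Tmprss11d (150 ± 30.6), Tmprss4 (86.2 ± 12) and Tmprss13 (62.9 ± 4.67), none overlapping its neighbour. St14 (39.4 ± 0.478) and Tmprss11g (37.9 ± 5.95) overlapped, and Tmprss11e (17.2 ± 3.65), Tmprss11f (6.76 ± 0.373) and Tmprss2 (1.34 ± 0.257) stood apart below them. Tmprss11a was thus at the head of the order with the TGFb inhibitor and at its end with TGFb1+BMP4+ibuprofen.

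The different directions within the Tmprss11 cluster were set against its surroundings. Tmprss11b, a HAT/DESC protease located between Tmprss11f and Tmprss11e, had 402 and 364 CPM in TGFb1+BMP4+ibuprofen organoids, 526 and 455 CPM in TGFb1+BMP4 organoids and 506 and 558 CPM in TGFb inhibitor organoids. Its libraries overlapped between the ligand and inhibitor groups, with a log2 change of -0.11 (SE 0.11, limma adjusted p = 0.472). It fell by 0.39 in TGFb1+BMP4+ibuprofen organoids against TGFb inhibitor organoids (SE 0.11, limma adjusted p = 0.0242), and differed by -0.28 from TGFb1+BMP4 organoids (SE 0.11, limma adjusted p = 0.123). The 5 members span 443.6 kb, and the window of 1 Mb on either side held 28 protein-coding genes. Of these 23 were not members, and 6 of the 23 were tested. The 23 include Tmprss11b, which was tested, and Tmprss11c, which lies beside Tmprss11d, reached at most 0.85 CPM and was not tested. None of the 6 passed between TGFb1+BMP4 and TGFb inhibitor organoids, where 40.3% of all tested genes were called. Between TGFb1+BMP4+ibuprofen and TGFb1+BMP4 organoids 2 of the 6 fell, where 9.01% of all tested genes did. Between TGFb1+BMP4+ibuprofen and TGFb inhibitor organoids 3 of the 6 fell, where 19.9% did. With 6 genes this is a description of the region only.

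**Figure D4:**
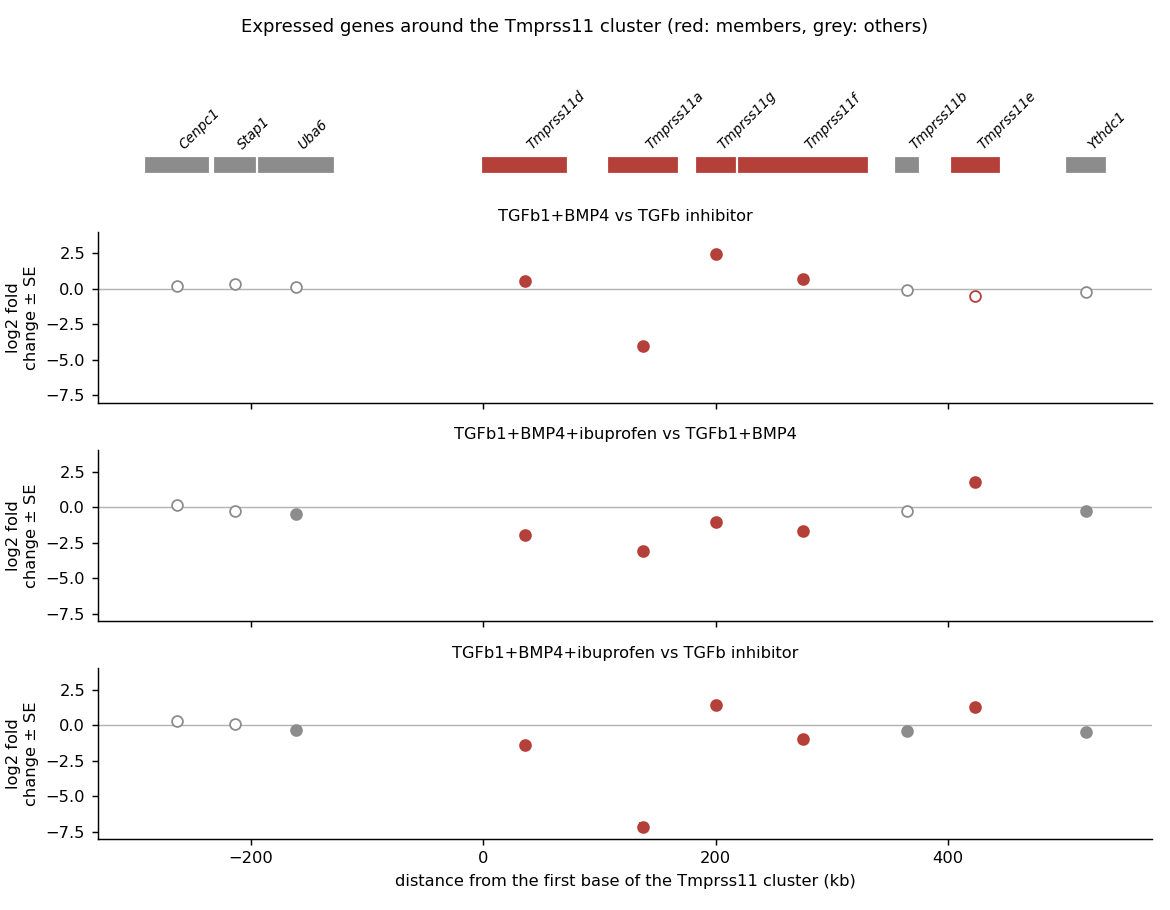
The upper row maps the expressed genes around the Tmprss11 cluster in kb from its lowest position, where Tmprss11d on the minus strand ends. Members are in red and others in grey, and Csn1s1, farther along, is not drawn. The lower 3 panels give each gene's log2 fold change with its SE, filled where adjusted p is below 0.05. Tmprss11a (-4.05) and Tmprss11g (2.47) lie on opposite sides of 0 between TGFb1+BMP4 and TGFb inhibitor, while 4 of the 5 members lie below 0 between TGFb1+BMP4+ibuprofen and TGFb1+BMP4.

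Of 12 other type II transmembrane serine proteases listed, 3 were tested, Tmprss11b, Tmprss9 and Corin. Tmprss9 and Corin were at most at 1.05 and 2.15 CPM and passed in no comparison. Of 7 further serine proteases listed, 5 were tested. In TGFb1+BMP4 organoids against TGFb inhibitor organoids 1 rose and 3 fell, where 20.4% of all tested genes rose and 19.9% fell. With ibuprofen added to the ligands 2 rose and 0 fell (all tested genes 10.7% and 9.01%). In TGFb1+BMP4+ibuprofen organoids against TGFb inhibitor organoids 2 rose and 2 fell (all tested genes 20.8% and 19.9%). Prss22, a tryptase, had 103 and 98.5 CPM in TGFb1+BMP4+ibuprofen organoids, 21.8 and 18.2 CPM in TGFb1+BMP4 organoids and 30 and 38.7 CPM in TGFb inhibitor organoids. Both ibuprofen libraries stood well above the rest, and Prss22 rose by 2.35 against TGFb1+BMP4 organoids (log2, SE 0.15, limma adjusted p = 5.97e-05), as Tmprss11e did in the cluster. Prss27 fell by 0.66 in TGFb1+BMP4 organoids against TGFb inhibitor organoids (SE 0.16, limma adjusted p = 0.0129). Prss30 and Prss41 stayed at or below 5.5 CPM but enter these counts. Prss30 was called higher in all 3 comparisons, from 1 and 0 reads in TGFb inhibitor organoids. Prss41 was called lower in both groups with ligands against TGFb inhibitor organoids.

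Genes that act with matriptase were examined in the same way. Prss8, which encodes prostasin, had 54.3 and 60.5 CPM in TGFb1+BMP4+ibuprofen organoids, 57.9 and 52.7 CPM in TGFb1+BMP4 organoids and 68.6 and 64 CPM in TGFb inhibitor organoids, and passed in no comparison (limma adjusted p from 0.105 to 0.488). Spint1, which encodes HAI-1, had 170 and 167 CPM in TGFb1+BMP4+ibuprofen organoids, 267 and 189 CPM in TGFb1+BMP4 organoids and 121 and 111 CPM in TGFb inhibitor organoids. The 3 groups did not overlap. Spint1 rose by 0.96 in TGFb1+BMP4 organoids (log2, SE 0.16, limma adjusted p = 0.00174) and by 0.62 in TGFb1+BMP4+ibuprofen organoids (SE 0.16, limma adjusted p = 0.0142), both against TGFb inhibitor organoids. With ibuprofen against the ligands alone it differed by -0.34 (SE 0.16, limma adjusted p = 0.173). Spint2, which encodes HAI-2, passed in no comparison, with log2 changes between -0.10 and 0.06.

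The ratio of St14 to Spint1 in CPM per kb was 0.855 and 0.776 in TGFb1+BMP4+ibuprofen organoids, 0.414 and 0.456 in TGFb1+BMP4 organoids and 0.764 and 0.818 in TGFb inhibitor organoids. It was lowest in both TGFb1+BMP4 libraries, and the other 2 groups overlapped. The ratio of St14 to Spint2 was 0.488 and 0.571 in TGFb1+BMP4+ibuprofen organoids, 0.316 and 0.35 in TGFb1+BMP4 organoids and 0.327 and 0.32 in TGFb inhibitor organoids, and was highest in both ibuprofen libraries. These ratios of transcripts were not tested and say nothing of protein or activity.

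**Figure D5:**
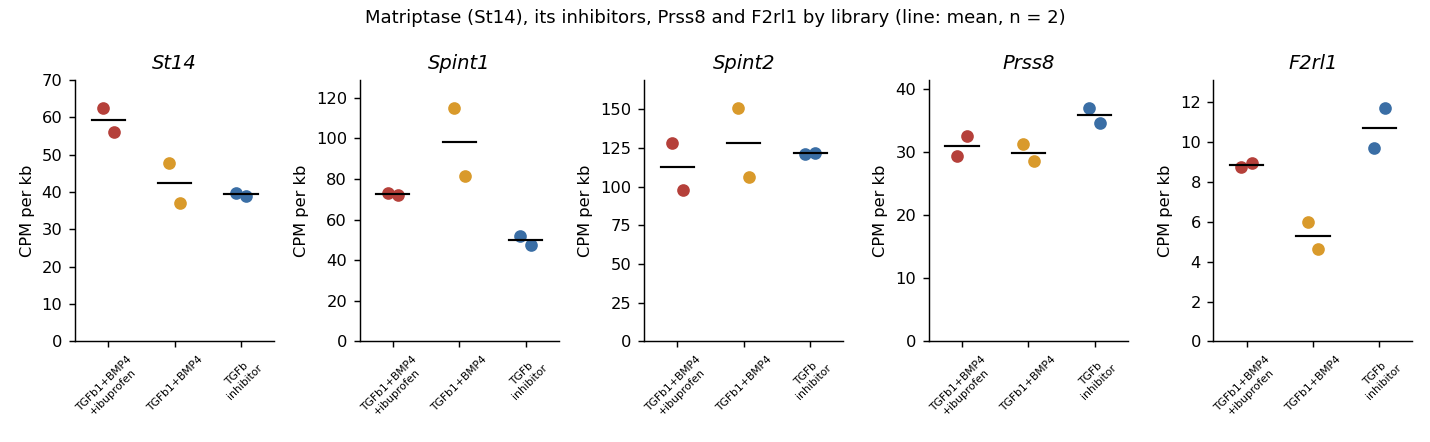
Transcript levels in CPM per kb (linear axes from 0) of St14, its inhibitors Spint1 and Spint2, Prss8 and F2rl1, with a point per library and a line at the mean of 2. St14 is highest with TGFb1+BMP4+ibuprofen (62.5 and 55.9 CPM per kb), Spint1 is highest with TGFb1+BMP4 (115 and 81.2), and F2rl1 is lowest there (5.96 and 4.61).

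Of 10 listed inhibitors of serine proteases, 5 were tested. In TGFb1+BMP4 organoids against TGFb inhibitor organoids 2 rose and 1 fell, where 20.4% of all tested genes rose and 19.9% fell. With ibuprofen added to the ligands 1 rose (all tested genes 10.7% higher and 9.01% lower). In TGFb1+BMP4+ibuprofen organoids against TGFb inhibitor organoids 2 rose and 1 fell (all tested genes 20.8% and 19.9%). Slpi, a secreted inhibitor of leukocyte and epithelial proteases, was the most abundant, with 1099 and 1235 CPM in TGFb1+BMP4+ibuprofen organoids, 448 and 537 CPM in TGFb1+BMP4 organoids and 1934 and 1814 CPM in TGFb inhibitor organoids. It fell by 1.92 with the ligands (log2, SE 0.11, limma adjusted p = 8.25e-06) against the TGFb inhibitor, and rose by 1.32 when ibuprofen was added to them (SE 0.11, limma adjusted p = 0.000224). Serpine2, a serpin of the cell surface, rose by 0.89 in TGFb1+BMP4 organoids (SE 0.13, limma adjusted p = 0.00099) and by 1.29 in TGFb1+BMP4+ibuprofen organoids (SE 0.13, limma adjusted p = 0.000133), both against TGFb inhibitor organoids.

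Genes listed as protease substrates and receptors were counted beside the shares over all tested genes. Whether the 9 members act on each of them was not tested. Of 17 listed, 16 were tested. In TGFb1+BMP4 against TGFb inhibitor organoids 6 were higher and 5 lower, against 20.4% and 19.9% of all tested genes. In TGFb1+BMP4+ibuprofen against TGFb1+BMP4 organoids 7 were higher and 2 lower, against 10.7% and 9.01%. In TGFb1+BMP4+ibuprofen against TGFb inhibitor organoids 7 were higher and 6 lower, against 20.8% and 19.9%. F2rl1, which encodes the protease-activated receptor PAR-2, had 24 and 24.5 CPM in TGFb1+BMP4+ibuprofen organoids, 16.3 and 12.6 CPM in TGFb1+BMP4 organoids and 26.5 and 32 CPM in TGFb inhibitor organoids. It fell by 0.96 with the ligands against the TGFb inhibitor (log2, SE 0.17, limma adjusted p = 0.00243) and rose by 0.78 with ibuprofen against the ligands alone (SE 0.17, limma adjusted p = 0.0141). Plau, which encodes the urokinase zymogen, had 156 and 134 CPM in TGFb1+BMP4+ibuprofen organoids, 46.6 and 57.5 CPM in TGFb1+BMP4 organoids and 10.3 and 16.2 CPM in TGFb inhibitor organoids. Its receptor Plaur had 54.2 and 33.1 CPM in TGFb1+BMP4+ibuprofen organoids, 4.6 and 4.65 CPM in TGFb1+BMP4 organoids and 2.35 and 2.1 CPM in TGFb inhibitor organoids. Both rose in all 3 comparisons, by 1.53 for Plau (SE 0.19, limma adjusted p = 0.00122) and 3.01 for Plaur (SE 0.24, limma adjusted p = 0.000167) when ibuprofen was added to the ligands. F2r, which encodes the thrombin receptor PAR-1, rose by 2.89 in TGFb1+BMP4 organoids (SE 0.20, limma adjusted p = 2.01e-05), and Scnn1a, a subunit of the epithelial sodium channel that such proteases can activate, fell by 1.08 (SE 0.09, limma adjusted p = 3.87e-05), both against TGFb inhibitor organoids.

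Squamous genes and cell type markers that moved in the same comparisons are given beside the proteases. Of 14 squamous factors and suprabasal genes, 1 rose and 9 fell in TGFb1+BMP4 against TGFb inhibitor organoids (all tested genes 20.4% and 19.9%). In TGFb1+BMP4+ibuprofen against TGFb1+BMP4 organoids 0 rose and 7 fell (all tested genes 10.7% and 9.01%). In TGFb1+BMP4+ibuprofen against TGFb inhibitor organoids 2 rose and 12 fell (all tested genes 20.8% and 19.9%). Krt4, a keratin of suprabasal esophageal cells, had 2.9 and 1.25 CPM in TGFb1+BMP4+ibuprofen organoids, 1145 and 311 CPM in TGFb1+BMP4 organoids and 3298 and 2158 CPM in TGFb inhibitor organoids. Its order of groups was that of Tmprss11a. Its partner Krt13 fell by 1.46 with the ligands (log2, SE 0.26, limma adjusted p = 0.00246) and by 1.83 more with ibuprofen (SE 0.26, limma adjusted p = 0.00198). Lor, which encodes the cornified envelope protein loricrin, and Klf5, a transcription factor of squamous epithelium, fell in all 3 comparisons. In TGFb1+BMP4+ibuprofen against TGFb inhibitor organoids Lor changed by -8 (SE 0.51, limma adjusted p = 1.29e-05) and Klf5 by -1.48 (SE 0.09, limma adjusted p = 1.18e-05). Ivl and Elf3 were the 2 that rose there, by 3.08 (SE 0.26, limma adjusted p = 5.27e-05) and 0.77 (SE 0.22, limma adjusted p = 0.0221). Ivl had 20.5 and 11.4 CPM in TGFb1+BMP4+ibuprofen, 18.8 and 18.7 CPM in TGFb1+BMP4 and 0.999 and 1.05 CPM in TGFb inhibitor organoids. With TGFb1+BMP4 against the TGFb inhibitor Ivl rose by 3.28 (SE 0.26, limma adjusted p = 3.79e-05). Of the Grainyhead-like factors, Grhl3 fell by 0.63 with the ligands against the TGFb inhibitor (SE 0.14, limma adjusted p = 0.0071), and Grhl1 by 0.77 with ibuprofen against the ligands alone (SE 0.14, limma adjusted p = 0.00738). Grhl1, Grhl2 and Grhl3 all fell in TGFb1+BMP4+ibuprofen against TGFb inhibitor organoids, with log2 changes of -1, -0.29 and -1.04.

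The label of esophageal epithelial cells was set against markers. The summed CPM of 8 keratinocyte markers, none at 0, was 12077 to 12864 in TGFb1+BMP4+ibuprofen organoids, 14760 to 18331 in TGFb1+BMP4 organoids and 15990 to 18584 in TGFb inhibitor organoids. These sums hide changes in both directions. In TGFb1+BMP4 against TGFb inhibitor organoids 3 of the 8 rose (Krt14 by 1.66, Epcam by 1.11 and Krt5 by 0.86 on the log2 scale) and 4 fell (Krt15 by 2.31, Krt4 by 2.15, Krt13 by 1.46 and Trp63 by 0.59). In that comparison 20.4% of all tested genes rose and 19.9% fell. Of the same 8, 1 rose and 3 fell in TGFb1+BMP4+ibuprofen against TGFb1+BMP4 organoids (all tested genes 10.7% and 9.01%). In TGFb1+BMP4+ibuprofen against TGFb inhibitor organoids 3 rose and 4 fell (all tested genes 20.8% and 19.9%). The eighth, Cdh1, the epithelial cadherin, passed in no comparison. The summed CPM of 8 fibroblast markers was 1514 to 1906 in TGFb1+BMP4+ibuprofen organoids, 1906 to 2923 in TGFb1+BMP4 organoids and 170 to 233 in TGFb inhibitor organoids. With TGFb1+BMP4 against the TGFb inhibitor 8 of 8 rose, where 20.4% of all tested genes did. With ibuprofen added to the ligands 1 of these 8 rose and 4 fell (all tested genes 10.7% and 9.01%). In TGFb1+BMP4+ibuprofen against TGFb inhibitor organoids 7 rose and 0 fell (all tested genes 20.8% and 19.9%). Muscle markers, 5 in all, summed to 351 to 474 CPM in TGFb1+BMP4+ibuprofen organoids, 507 to 648 CPM in TGFb1+BMP4 organoids and 277 to 342 CPM in TGFb inhibitor organoids. Of these, Myh11 and Cnn1 stayed at or below 0.75 CPM. The others differed when ibuprofen was added to the ligands. Myh1 fell by 1.88 (log2, SE 0.20, limma adjusted p = 0.000596), while Des (-0.05) and Acta1 (0.04) did not pass. The sums of 6 immune, 5 endothelial and 4 glial markers stayed at or below 61.4 CPM in every library. Columnar epithelial markers, 6 in all, summed to 19.8 to 35.3 CPM in TGFb1+BMP4+ibuprofen organoids, 42.5 to 125 CPM in TGFb1+BMP4 organoids and 8.75 to 15.7 CPM in TGFb inhibitor organoids, with Tff1 and Cdx2 at 0. In bulk organoids, fewer cells of a type and less RNA per cell cannot be told apart, and the part of cell makeup in the protease changes was not tested.

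The genes whose pattern was most like that of each member were sought by Pearson correlation of log2 values over the 6 libraries. The candidates were 10455 protein-coding genes with a mean of at least 5 CPM and a usual gene symbol (no Gm, Rik or clone name). Such a correlation compares the shape over the libraries and not the level or the size of change. The 6 libraries fall into 3 groups, which all genes share, so these values are descriptions. Tmprss11a was nearest to Hnrnpu, Il15ra and Ppp2r5a (the last 2 with r = 0.999), and Tmprss11g to Inppl1, Galnt10 (both r = 0.999) and Sptbn1 (r = 0.998). Hnrnpu had means of 440 CPM in TGFb1+BMP4+ibuprofen, 527 CPM in TGFb1+BMP4 and 633 CPM in TGFb inhibitor organoids. Those of Tmprss11a were 4.87, 49.7 and 847 CPM, a far wider range. Tmprss11d was nearest to Kctd1 (r = 0.995), Tmprss11f to Zfp935 (r = 0.995) and Tmprss11e to Psma1 (r = 0.990). Tmprss4 was nearest to Has3 (r = 0.999), which encodes a hyaluronan synthase, Tmprss13 to Inpp4a, St14 to Arpc2 (r = 0.997) and Tmprss2 to Hnrnph3 (r = 0.994). No member was among the 3 nearest genes of another.

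The authors' deposited table gives its own log2 changes against the TGFb inhibitor and a false discovery rate per gene, without naming the comparison that rate tests. In the authors' deposited table Tmprss11a stood at -7.44 for TGFb1+BMP4+ibuprofen and -4.08 for TGFb1+BMP4, with a rate of 0.0107. In the authors' deposited table Tmprss11g (rate 0.0156) and Tmprss13 (rate 0.0182) were also below 0.05, and the other 6 members were at 0.0544 to 0.394.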

How the data were processed

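RNA was sequenced on a NovaSeq instrument from Ovation Solo libraries, per the labels' protocols. The submitters' processing notes name STAR 2.5.3a, HTSeq, edgeR, Cell Ranger 3.1.0 and GRCm38/mm10, without their roles. The authors deposited for each library a signal of gene reads scaled to a common total and CPM values, and gave log2 changes, p-values and false discovery rates (p-values adjusted by the authors) in the deposited table.

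The scaled signal steps were read back as reads, which gave the depth, with 99.92 to 99.95% of values exact and a largest offset of 0.213 reads. A level of 3 reads corresponds to 0.388 to 0.468 CPM, and such floors cover counting error only. The deposited values are not raw counts, so limma 3.58.1 in R 4.3.3 (trend) was run on log2(CPM/TMM factor + 1) with a pseudocount of 1. A term per group was fitted to all 6 libraries for genes with at least 1 CPM in at least 2 libraries, with Benjamini-Hochberg adjustment over the 18241 genes kept. Tested on simulated data for TGFb1+BMP4 against TGFb inhibitor, it recovered 99.5% of 200 genes changed by 4-fold (17851 genes tested) and 70.5% changed by 2-fold (18012 genes tested). Positions and transcript lengths came from GENCODE vM21, where 52489 of 52636 genes matched. The members and lists were chosen with earlier results of these data known. From each list, the text names up to 4 tested genes with the smallest adjusted p, plus Spint1, Spint2, Prss8 and F2rl1. Grhl1, Grhl2, Grhl3, Ivl, Elf3 and Cdh1 were named after their values were seen. For likeness, the 3 genes with the highest correlation were taken. Alternatives covered the pseudocount, the filter, the scaling, the libraries used, the replicate block and leaving out each library.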

Additional observations from a re-analysis of the deposited data

How the results depend on the processing

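Each of 15 alternatives was applied to the 9 members and to the counts of calls, not to the other named genes. Of 405 values for members, 380 kept their direction and their side of the threshold, 11 lost a call, 11 gained a call and 3 reversed. The reversals were St14 in TGFb1+BMP4 against TGFb inhibitor organoids (-0.11 without TGFb1+BMP4 replicate 1, up to 0.31 without the other libraries) and Tmprss2 in TGFb1+BMP4+ibuprofen against TGFb1+BMP4 organoids (-0.18 and -0.02, with a range of -0.18 to 0.82 over the libraries left out). Leaving out a library, the members called higher in TGFb1+BMP4 against TGFb inhibitor organoids numbered 1 (without TGFb1+BMP4 replicate 1) to 3. A group left with 1 library is assumed to vary like the others. All genes called in that comparison were 7354, with 4713 to 7324 on leaving out each library in turn, the lowest being 4713 and 4781 without TGFb inhibitor replicates 1 and 2. In TGFb1+BMP4+ibuprofen against TGFb1+BMP4 organoids they were 3601, with 1641 to 2879 on leaving out each library in turn (1641 without TGFb1+BMP4+ibuprofen replicate 1 and 2261 without TGFb1+BMP4 replicate 2), and 2356 with no filter on low values. In TGFb1+BMP4+ibuprofen against TGFb inhibitor organoids they were 7419, with 4680 to 7544, the lowest being 4680 and 4912 without TGFb inhibitor replicates 1 and 2. With only the 4 libraries compared, Tmprss2 passed in that comparison (limma adjusted p = 0.0259). Fewer libraries or more genes tested enter those alternatives by construction.

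Over 18241 genes, same-numbered libraries deviated together weakly, with correlations of 0.19, 0.258 and 0.174 between the 3 pairs of groups. Among the members, Tmprss11d, Tmprss4 and Tmprss13 were higher in replicate 2 of every group, and Tmprss11e, Tmprss2 and St14 in replicate 1. The labels do not say that a number marks a shared culture or day. The block raised all genes called to 7964 in TGFb1+BMP4 against TGFb inhibitor organoids. In TGFb1+BMP4+ibuprofen against TGFb1+BMP4 organoids it raised them to 4338. With the replicate number as a block, Tmprss11e in TGFb1+BMP4 against TGFb inhibitor organoids (limma adjusted p = 0.0111), Tmprss4 in TGFb1+BMP4+ibuprofen against TGFb1+BMP4 organoids (0.00779) and Tmprss2 in TGFb1+BMP4+ibuprofen against TGFb inhibitor organoids (0.00941) gained a call, and no member lost a call. A quasi-likelihood test on counts was planned and not run, because the deposited values are not raw counts. In its place limma-voom on the recovered reads, chosen after seeing the data, gave the same numbers of members called in all 3 comparisons. Few reads lie behind Tmprss2 and the low values of Tmprss11a, which limits their precision.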
